A study of Homo sapiens with 6 samples.

Results

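The D cyclins, their kinases CDK4 and CDK6, the pocket proteins and 2 inhibitors of these kinases were followed at the RNA level. The cells were Mum-2b, labelled as uveal melanoma, with and without knockdown of NELFCD. The 10 genes (CCND1, CCND2, CCND3, CDK4, CDK6, RB1, RBL1, RBL2, CDKN1B and CDKN2C) were taken by symbol from the 58735 genes of the deposited count table. Each symbol matched a single row. Of the 10 genes, 9 passed the filter on low counts and were tested among 14844 genes, and CCND2 did not pass. The study has 6 libraries, 3 of control cells with the genotype WT and 3 of cells with the genotype NELFCD_knockdown, whose titles carry a single hairpin number. The labels do not say whether control cells carried a control hairpin or whether replicates were separate cultures, so p-values measure only the spread between these libraries. With 1 hairpin, an effect of the target and of an off-target cannot be told apart.

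D-type cyclins are made when cells receive growth signals, and they bind and activate CDK4 or CDK6. The active kinases phosphorylate the pocket proteins RB1, RBL1 (p107) and RBL2 (p130), which otherwise hold E2F transcription factors and repress genes needed for S phase. CDKN2C (p18) is an inhibitor of the INK4 type that binds CDK4 and CDK6 themselves, while CDKN1B (p27) binds cyclin-CDK complexes and mainly restrains CDK2. RBL2 is known to be abundant in resting cells and RBL1, itself a target gene of E2F, in cycling cells.

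The stretches of genome before the start sites of RBL1, CDK6 and RBL2 are shown because RBL1 and CDK6 were lower in the knockdown and RBL1 and RBL2 differed in opposite directions between replicates. Each is the 250 bases before a start site, taken from RefSeq promoter windows (GRCh38.p14). RBL1 lies at chr20:37095998-37096247 on the minus strand, CDK6 at chr7:92836574-92836823 on the minus strand, and RBL2 at chr16:53434221-53434470 on the plus strand. Capitals mark matches to an E2F motif.
RBL1: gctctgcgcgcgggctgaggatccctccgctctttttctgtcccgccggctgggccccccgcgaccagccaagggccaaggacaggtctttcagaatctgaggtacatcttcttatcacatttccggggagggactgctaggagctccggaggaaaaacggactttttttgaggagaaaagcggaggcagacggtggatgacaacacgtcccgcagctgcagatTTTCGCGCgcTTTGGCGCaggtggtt
CDK6: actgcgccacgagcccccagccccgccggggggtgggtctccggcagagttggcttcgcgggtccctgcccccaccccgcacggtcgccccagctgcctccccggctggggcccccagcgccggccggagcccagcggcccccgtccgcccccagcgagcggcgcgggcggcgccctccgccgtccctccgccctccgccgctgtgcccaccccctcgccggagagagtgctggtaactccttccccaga
RBL2: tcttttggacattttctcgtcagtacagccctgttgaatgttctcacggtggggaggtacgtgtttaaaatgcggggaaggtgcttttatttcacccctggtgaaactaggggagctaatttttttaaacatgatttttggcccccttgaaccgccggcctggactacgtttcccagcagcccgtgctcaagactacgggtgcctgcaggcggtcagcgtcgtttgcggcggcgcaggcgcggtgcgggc

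The E2F motif was searched on both strands as TTTCCCGC, TTTCGCGC, TTTGGCGC or TTTGCCGC. The RBL1 window held 2 matches, TTTCGCGC and TTTGGCGC, which began 26 and 16 bases before the start site. Of 35116 RefSeq windows of this length, 979 (2.79%) held a match. The windows found for the other members held 0, and these were 3 start sites each for CDKN2C and CCND3, 2 each for CDK6 and RBL2, and 1 each for CDK4, CDKN1B and RB1. The RB1 window lay 172724 bases inside the gene. Other start sites lay inside the annotated gene too, among them CCND3 at 108549 and 111152 bases from the gene start. Those of RBL2 lay at 494 bases, for the window shown, and at 1642. The CDK6 start site whose window is not shown lay at 2635 bases. Those of CDKN2C lay up to 9500 bases inside, that of CDK4 3703 and that of CDKN1B 2310. A GC box (GGGCGG, both strands), which 42.6% of all windows held, and whose letters can overlap TTTCCCGC on the opposite strand, matched 3 times in the CDK6 window shown and 0 times in those of RBL1 and RBL2. A match is a description of letters, and no match says only that those letters are not in the window. CCND1 and CCND2 had no entry.

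Total counts per library ran from 14306733 to 16656630. NELFCD, the targeted gene, lay between 65.5 and 88.3 CPM (the count relative to library size, scaled by trimmed mean of M-values) in controls and between 20.7 and 40.3 CPM in knockdowns, which left 41.5% of the control mean (exact two-sided permutation p = 0.1, the smallest that 3 against 3 libraries allow). Replicate 1 of both groups stood apart from replicates 2 and 3. Between libraries of a group the chi-square per degree of freedom was 101 to 115 where replicate 1 was in the pair, and 2.06 to 2.21 between replicates 2 and 3. Without a replicate term edgeR's quasi-likelihood test called 0 of 14844 genes (0%), with 954 at an unadjusted p under 0.05, limma-voom called 0 and DESeq2 161. Log2 fold changes below come from an edgeR model that holds replicate number as a block unless stated. The fit without a replicate term was planned as the main one, since no label states a pairing. The pairing in the blocked model was inferred from these same data. Of 8 melanocyte markers, 5 were at a mean of 1 CPM or less (SOX10, PMEL, TYR, DCT and S100B), and the others (TYRP1, MITF and MLANA) were at 4.66, 3.38 and 1.20 CPM. Their summed level was 7.50 to 10.8 CPM in controls and 7.61 to 18.3 CPM in knockdowns. Of 6 epithelial markers, 2 were high, with means over the 6 libraries of 774 CPM for the keratin KRT8 and 432 CPM for KRT18. The other 4 were low, at 0.20 CPM for EPCAM, 0.011 for CDH1, 0.37 for KRT19 and 0 for KRT5. Of 5 endothelial markers, TIE1 was at 266 CPM and CDH5 at 96.9 CPM, while KDR (1.64), PECAM1 (1.51) and VWF (0.34) were low. The defining markers TYR and S100B had no count in 5 of 6 libraries. The summed level of 5 endothelial markers also differed between groups, at 375 to 491 CPM in controls and 278 to 358 CPM in knockdowns, with CDH5 at a log2 fold change of -1.38 and KRT18 at 0.49 in the blocked model. Fibroblast and immune markers summed to at most 2.05 and 1.06 CPM. The part of these markers in the results was not tested. In bulk RNA, fewer cells with a transcript and less of it per cell cannot be told apart.

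Cyclin D1 RNA fell to 0.515 of its control level, CDK6 to 0.802 and RBL1 to 0.694 in the blocked model, and these were the 3 members called lower. No member was called higher. CCND3, CDK4, RB1, CDKN1B and CDKN2C were not called, and RBL2 was at an adjusted p = 0.053. Thus 3 of 9 tested members fell, where 8.01% of all genes fell, 5.48% rose and 13.5% were called in either direction (edgeR quasi-likelihood test, Benjamini-Hochberg adjusted p under 0.05). The median log2 fold change of the 9 was -0.05, against 0 for all genes. Without the replicate term 0 of the 9 were called by edgeR, DESeq2 or limma-voom, and 1 (CCND1) had an unadjusted p under 0.05 in edgeR. Without replicate 1 of both groups 5 were called, with RB1 as a rise and RBL2 as a fall in addition. That setting also called more of all genes, 4090 against 2002 in the blocked fit on all libraries.

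**Figure D1:**
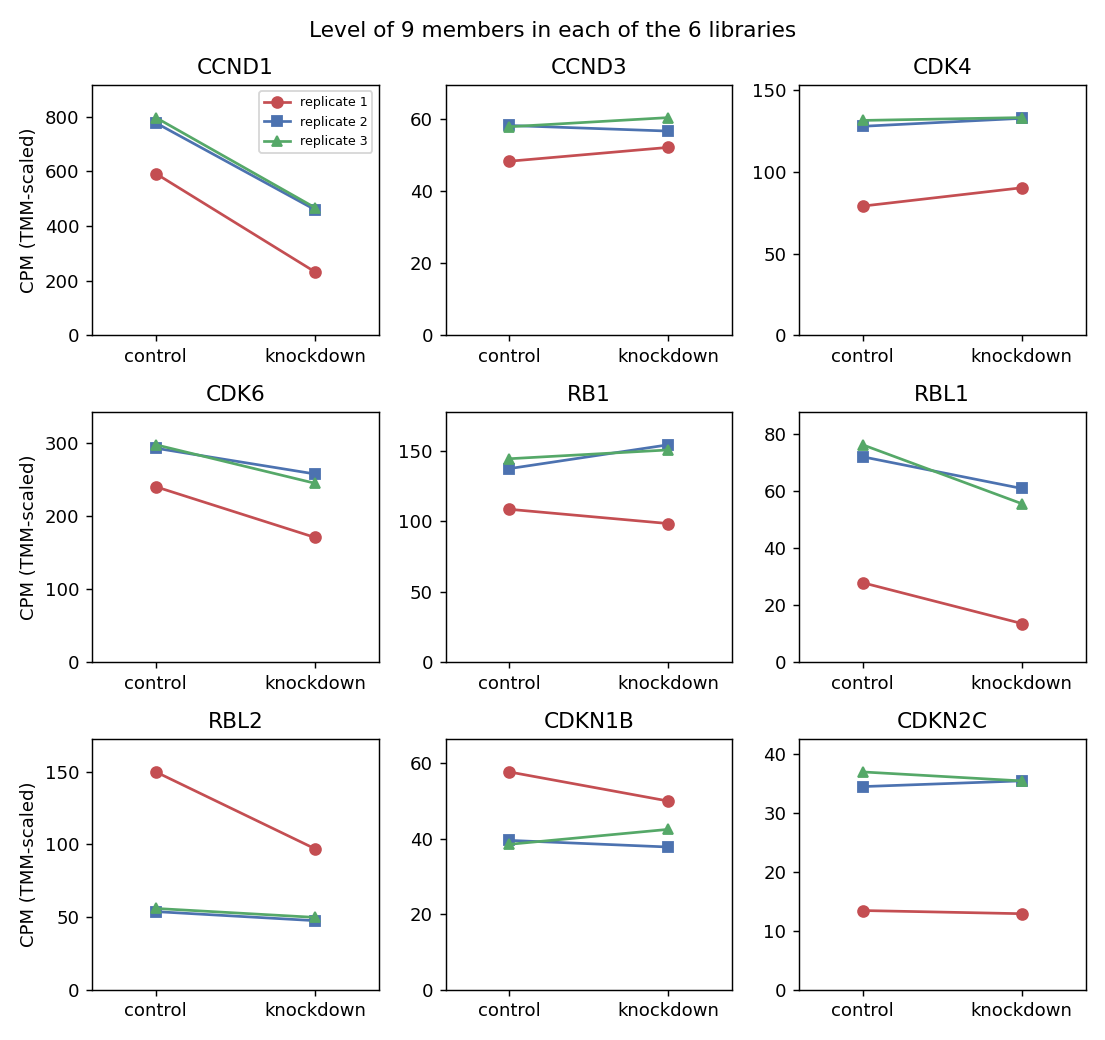
Level of 9 members in each library, in TMM-scaled CPM (vertical axes from 0, a scale for each gene); lines join the control and knockdown library with the same replicate number. CCND1 is the member whose groups do not overlap, and replicate 1 lies below replicates 2 and 3 in 7 panels and above them for RBL2 and CDKN1B.

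CCND1 (ENSG00000110092, hg38 chromosome 11, 69641087 to 69654474), cyclin D1, was the most abundant member per length. Replicates 1 to 3 of the controls stood at 591, 777 and 796 CPM, and those of the knockdown at 232, 459 and 467 CPM. Every knockdown library lay below every control library, and the lowest control (95% Poisson interval 579 to 604 CPM) was clear of the highest knockdown (456 to 478 CPM). CCND1 was the only tested member without overlap, where 14.9% of all genes had none. The mean went from 722 ± 113 to 386 ± 134 CPM (SD, n = 3), and by pair 39.2%, 59.1% and 58.6% of the control level remained. The log2 fold change was -0.96 ± 0.12 (SE), with an adjusted p = 0.0036 in edgeR's blocked test. Without the replicate term it was -0.90 ± 0.30 (SE; edgeR adjusted p = 0.68), and the exact two-sided permutation p was 0.1. Exons of LTO1 on the opposite strand share 497 bases (10.3%) of the CCND1 exons. LTO1 had 365 to 522 counts per library against 3488 to 12733 for CCND1.

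CCND2 (ENSG00000118971, chromosome 12, 4273772 to 4305350), cyclin D2, was hardly detected. It had 0 counts in 4 libraries, 1 in control replicate 3 and 5 in knockdown replicate 1. A count of 0 allows up to 3 counts, which is 0.182 to 0.212 CPM in these libraries, for counting error only. No fold is given, as 5 of the 6 libraries were under that floor.

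CCND3 (ENSG00000112576, chromosome 6, 41934933 to 42050357), cyclin D3, was at 48.4, 58.3 and 58.0 CPM in controls and 52.2, 56.8 and 60.5 CPM in knockdowns. The groups overlapped, with replicate 1 the lowest of each. The log2 fold change was 0.04 ± 0.07 (SE; edgeR blocked adjusted p = 0.72).

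Per length, in deposited FPKM (counts relative to gene length and library size), CCND1 made up 94.0% ± 0.34 of the summed D cyclin level in controls and 88.4% ± 3.66 in knockdowns (SD, n = 3). CCND3 made up the rest apart from at most 0.0814% of CCND2. The ratio of CCND1 to CCND3 in FPKM was 14.7, 16.0 and 16.5 in controls and 5.33, 9.72 and 9.26 in knockdowns. So cyclin D1 was still the main D cyclin transcript in each knockdown library, and knockdown replicate 1 had the lowest ratio.

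CDK4 (ENSG00000135446, chromosome 12, 57747727 to 57756013) was at 79.2, 128 and 132 CPM in controls and 90.4, 133 and 133 CPM in knockdowns. The knockdown library stood at 114%, 104% and 101% of its control in pairs 1 to 3, and the groups overlapped. Its log2 fold change was 0.09 ± 0.06 (SE; edgeR blocked adjusted p = 0.41). TSPAN31 on the opposite strand shares 1369 of the 3168 CDK4 exon bases (43.2%) and had 147 to 366 counts per library against 1155 to 2194 for CDK4. Whether counting used strand is not given in the sources used here, so the division of these reads is uncertain.

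CDK6 (ENSG00000105810, chromosome 7, 92604921 to 92836594), the partner kinase with the same cyclins, was at 241, 293 and 298 CPM in controls and 171, 258 and 245 CPM in knockdowns. The knockdown library was the lower in each pair, at 71.1%, 88.0% and 82.3% of its control, though knockdown replicates 2 and 3 lay above control replicate 1. The log2 fold change was -0.32 ± 0.07 (SE; edgeR blocked adjusted p = 0.021), and the call was lost without replicate 2 (adjusted p = 0.056) and without the replicate term (adjusted p = 1), of 11 alternatives. CDK4 took 56.0%, 62.8% and 63.1% of the summed FPKM of both kinases in controls and 67.1%, 66.6% and 67.8% in knockdowns. Summed D cyclin FPKM over summed CDK4 and CDK6 FPKM was 2.93, 2.66 and 2.65 in controls and 1.34, 1.66 and 1.72 in knockdowns. These 2 quantities did not overlap between the groups, and both include CDK6 or CCND1, which were called lower. The 14.9% of single genes without overlap is no background for a share or a ratio, and none was computed for these. Of the other ratios, CCND1 to CCND3 did not overlap. RBL1 to RBL2, RB1 to RBL1 plus RBL2, CDKN1B to CDKN2C and D cyclins to CDKN1B overlapped. They are given without a test because the members were chosen with earlier results known.

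**Figure D2:**
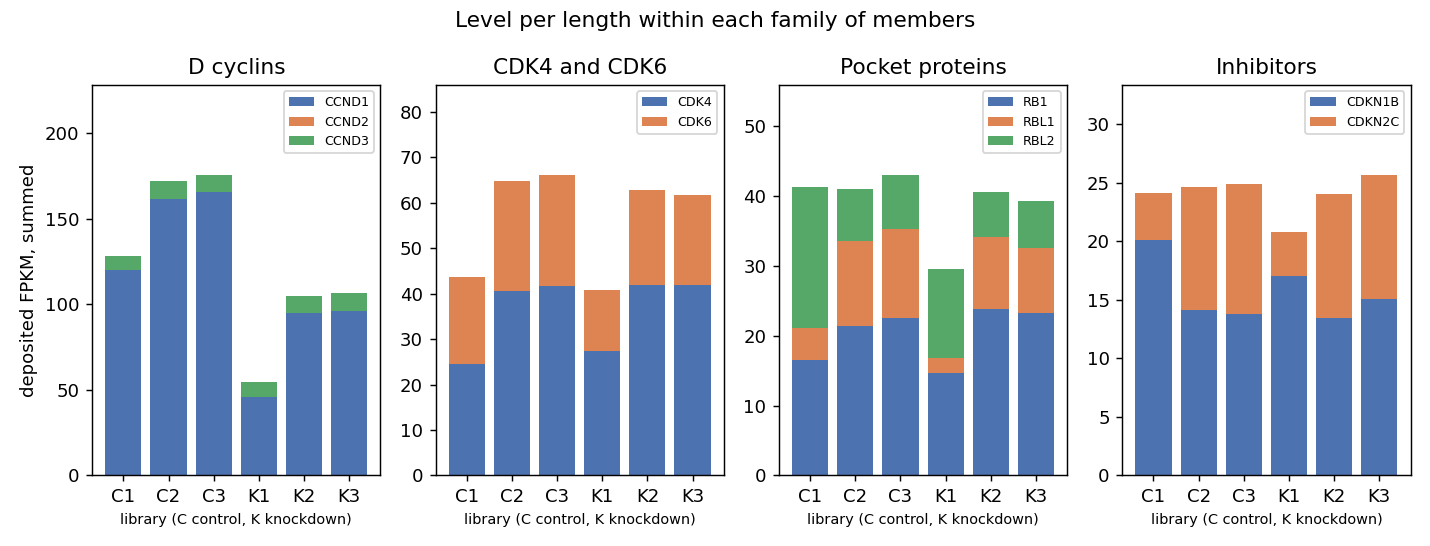
Stacked deposited FPKM of the members of each family in control (C) and knockdown (K) libraries 1 to 3, with a vertical axis from 0 in each panel. CCND1 fills most of the D cyclin bars, and the RBL1 and RBL2 parts trade places between replicate 1 and replicates 2 and 3.

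RB1 (ENSG00000139687, chromosome 13, 48303726 to 48599436), the retinoblastoma protein gene, was at 109, 137 and 144 CPM in controls and 98.5, 154 and 151 CPM in knockdowns. Replicate 1 was the lowest of each group, and the knockdown library was the lower one in pair 1 and the higher one in pairs 2 and 3. The blocked log2 fold change was 0.03 ± 0.07 (SE; edgeR adjusted p = 0.81). In replicates 2 and 3 alone RB1 was called higher, at a log2 fold change of 0.11 (edgeR adjusted p = 0.031). That fit has fewer residual degrees of freedom than the full blocked one and rests on the close resemblance of replicates 2 and 3. It called 4090 of all genes, against 2002 in the full blocked fit. Without replicate 2 the RB1 value turned to -0.04 (edgeR adjusted p = 0.87).

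RBL1 (ENSG00000080839, chromosome 20, 36996349 to 37095995), whose promoter window holds the pair of E2F matches, was at 27.9, 71.9 and 76.1 CPM in controls and 13.6, 60.8 and 55.5 CPM in knockdowns. The knockdown library was lower in each pair, at 48.8%, 84.6% and 72.9% of its control. The groups overlapped, since control replicate 1 lay below knockdown replicates 2 and 3. Raw counts were lowest in knockdown replicate 1, at 205, with a 95% Poisson interval of 11.8 to 15.6 CPM. The log2 fold change was -0.53 ± 0.13 (SE; edgeR blocked adjusted p = 0.03), and without the replicate term the adjusted p was 1.

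RBL2 (ENSG00000103479, chromosome 16, 53433977 to 53491649) was at 149.9, 53.7 and 55.9 CPM in controls and 97.0, 47.5 and 49.8 CPM in knockdowns. Replicate 1 was the highest of both groups. Each knockdown library was below its paired control, at 64.7%, 88.4% and 89.0%, and the groups overlapped. Its log2 fold change of -0.34 ± 0.10 (SE) had an adjusted p = 0.053 in edgeR's blocked test. It passed in 6 of 11 alternatives, with an adjusted p from 0.00039 to 1. AKTIP, on the opposite strand, and AC007342.6 together share 18.2% of the RBL2 exon bases. AKTIP had 306 to 500 counts per library against 726 to 2187 for RBL2.

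The 3 pocket protein genes together were at 41.2, 41.0 and 43.0 FPKM in controls and 29.6, 40.6 and 39.3 FPKM in knockdowns. Knockdown replicate 1 had the lowest sum. RB1 held 40.1%, 52.3% and 52.3% of that sum in controls and 49.6%, 58.9% and 59.2% in knockdowns. So its share was higher in the knockdown library of each pair. RB1 itself was not called, while RBL1 and RBL2, which enter the sum, were lower in the knockdown library of each pair.

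CDKN1B (ENSG00000111276, chromosome 12, 12715058 to 12722371) was at 57.7, 39.6 and 38.5 CPM in controls and 49.98, 37.8 and 42.5 CPM in knockdowns. Replicate 1 was the highest of each group, and the pairs did not share a direction. The log2 fold change was -0.05 ± 0.09 (SE; edgeR blocked adjusted p = 0.76), and it was 0.001 with upper-quartile scaling.

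CDKN2C (ENSG00000123080, chromosome 1, 50960745 to 50974633) was at 13.4, 34.5 and 37.0 CPM in controls and 12.9, 35.4 and 35.4 CPM in knockdowns. Its pairs differed by -0.06, 0.04 and -0.06 on the log2 scale, the smallest spread of the tested members (SD 0.058). The blocked log2 fold change was -0.02 ± 0.09 (SE; edgeR adjusted p = 0.88), and 0.02 with upper-quartile scaling.

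Among the other INK4 genes, CDKN2A (p16) and CDKN2B (p15) had 0 counts in each of the 6 libraries, which allows up to 3 counts per library. CDKN2D (p19) was at 18.4 CPM in controls and 16.5 CPM in knockdowns, with a log2 fold change of -0.14 ± 0.11 (SE; edgeR blocked adjusted p = 0.42). CDKN2C and CDKN2D were therefore the INK4 transcripts detected in these cells.

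**Figure D3:**
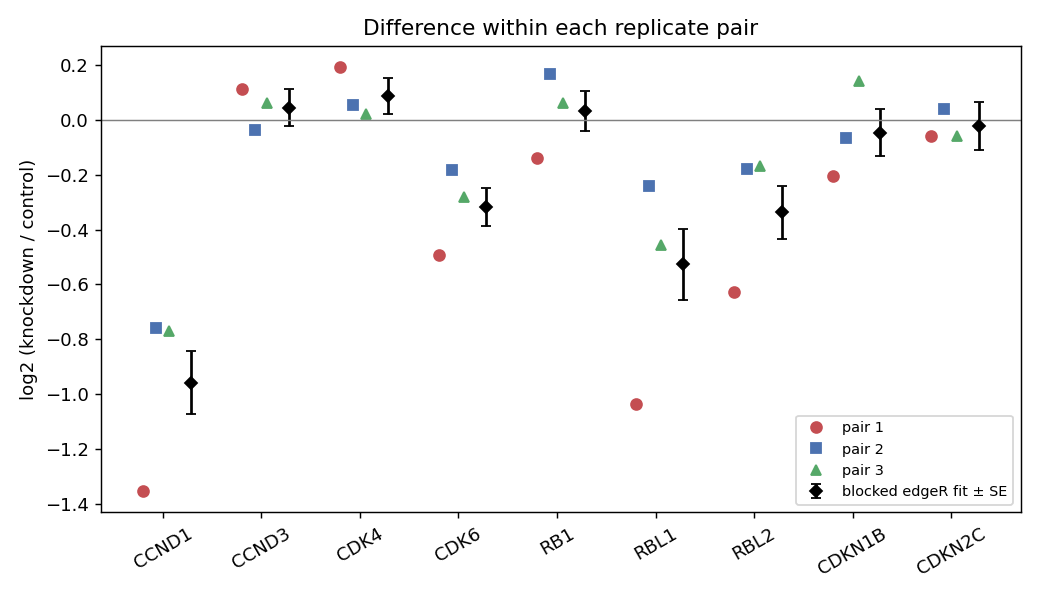
Log2 ratio of knockdown to control CPM within each replicate pair (coloured points) for the 9 tested members, with the blocked edgeR log2 fold change and its SE (black). CCND1, CDK6, RBL1 and RBL2 lie below 0 in each of the 3 pairs, and pair 1 is the lowest for each of them.

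In control libraries the order of mean level per length was CCND1 (149 FPKM), CDK4 (35.6), CDK6 (22.6), RB1 (20.1), CDKN1B (16.0), RBL2 (11.7), RBL1 (9.86), CCND3 (9.44), CDKN2C (8.54) and CCND2 (0.0029). The ranges over 3 controls did not overlap between CCND1 and CDK4, between CDK4 and CDK6, and between CDKN2C and CCND2. All other neighbours in this order overlapped. CCND1 was above 98.6% of the 12160 tested protein-coding genes in control FPKM, and CDK4 was above 90.9%.

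For each tested member except CCND1 the difference between replicates was larger than the knockdown difference. In edgeR's fit with the group and replicate 1 as terms, 9 of 9 tested members differed between replicate 1 and replicates 2 and 3, where 61.8% of all genes did. This contrast was set after an earlier analysis of these data had found replicate 1 apart. Its p-values therefore describe these libraries and are not independent evidence. Lower in replicate 1 were 7 members (30.2% of all genes) and higher were 2 (31.6%). The largest were RBL1 (log2 difference -1.71 ± 0.14, SE) and CDKN2C (-1.43 ± 0.09) among the lower ones and RBL2 (1.23 ± 0.09) and CDKN1B (0.44 ± 0.08) as the higher ones. CCND1 (-0.69), CDK4 (-0.64), RB1 (-0.50), CDK6 (-0.42) and CCND3 (-0.21) were also lower there. Their adjusted p in edgeR ran up to 0.016, for CCND3. The ratio of RBL1 to RBL2 in FPKM was 0.229 and 0.173 in replicate 1 of controls and knockdowns, and 1.37 to 1.67 in the other 4 libraries. In the same libraries 16 of 16 S phase genes that E2F regulates were lower in replicate 1, with a median log2 difference of -1.86 against 0.03 for all genes. Their part in the members' differences was not tested. The labels name a reagent or a column kit for RNA extraction without saying which library had which.

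**Figure D4:**
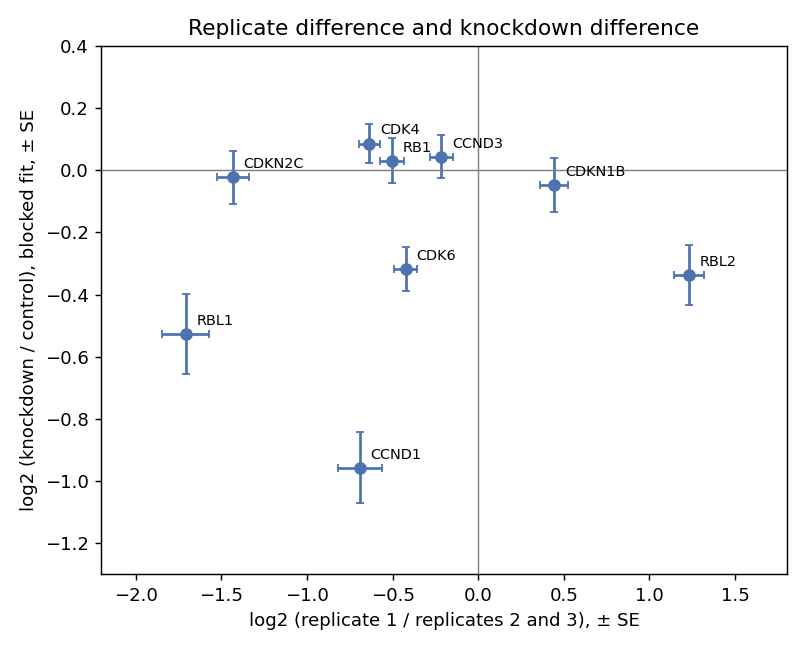
Log2 difference of replicate 1 from replicates 2 and 3 (horizontal) and blocked log2 difference of knockdown from control (vertical) for the 9 tested members, each with its SE from edgeR. RBL1 is low on both axes, RBL2 is high on the horizontal axis, and CDKN2C differs between replicates with a vertical value of -0.02.

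The knockdown difference itself was not the same size in the 3 pairs. In an interaction test in edgeR, 5 of 9 tested members differed between pair 1 and pairs 2 and 3, where 13% of all genes did. The differences were -0.59 ± 0.06 (SE) for CCND1, -0.69 ± 0.15 for RBL1, -0.45 ± 0.10 for RBL2, -0.26 ± 0.07 for CDK6 and -0.26 ± 0.09 for RB1, with adjusted p from 1.2e-13 for CCND1 to 0.033 for RB1 in edgeR. NELFCD was also lowest relative to its control in pair 1, at 31.5% against 42.4% and 48.2%, with an interaction of -0.52 ± 0.13 (SE; edgeR adjusted p = 0.0029). Whether the depth of the knockdown bears on the members' values was not tested. This test has 2 residual degrees of freedom, which rest on the close resemblance of replicates 2 and 3. It uses the same split of replicate 1 from the others, which was known from these data.

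Pocket proteins hold E2F factors, and 2 lists around E2F were read in the blocked model, in which 8.01% of all genes fell and 5.48% rose. Among 16 E2F, DP and MuvB genes 5 fell and 0 rose, with a median of -0.01 against 0 for all genes. These were the E2F genes E2F8 (-0.81), E2F1 (-0.50) and E2F2 (-0.51), MYBL2 (-0.37), which encodes B-Myb, and RBBP4 (-0.31), a histone-binding subunit of MuvB named after its value was seen. TFDP1 (0.01), the main DP partner, and E2F4 (-0.02), the E2F that works mostly with RBL1 and RBL2, did not pass. Among 16 S phase genes 7 fell and 0 rose, against the same 8.01% and 5.48% of all genes, with a median of -0.28. The helicase subunits MCM6 (-0.49), MCM5 (-0.39) and MCM2 (-0.35) and the sliding clamp PCNA (-0.37) were among the falls, and MCM4 (-0.25) and TK1 (-0.20) did not pass. These lists lay low in replicate 1 as well. They were chosen with earlier results of these data known and are not independent evidence of a direction. Without replicate 2 of both groups 2 of the E2F list and 3 of the S phase list fell. Without replicate 1 the E2F list had 5 falls and 2 rises, and the S phase list 12 falls and 0 rises. The background moved too. Over all genes there were 1189 falls and 813 rises with all replicates, 625 and 307 without replicate 2, and 2213 and 1877 without replicate 1.

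Cyclin E, cyclin A and CDK2 with their activators gave 0 calls among 8 genes in edgeR's blocked test, with 1 at an unadjusted p under 0.05. CCNA2, cyclin A2, was at -0.02 and CDK2 at -0.20 (adjusted p = 0.1). The 3 tested genes of the other inhibitors gave 0 calls, also before adjustment. Blocked DESeq2 and blocked limma-voom called 0 in either list. Without replicate 1, a setting that called 4090 of all genes against 2002, each list had 1 call. CDKN1A (p21) was at -0.001 ± 0.16 (SE), with pairs of 0.45, -0.18 and -0.49, and its direction changed in 7 of 11 alternatives.

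Among 12 genes of D cyclin and p27 turnover and CDK4 folding, 2 rose and 0 fell, with a median of -0.06. Of all genes 13.5% were called in either direction and 5.48% rose, so a count of 2 is near the background. CDC37 (0.27), the co-chaperone that loads CDK4 onto HSP90, and DDB1 (0.20), the adaptor of CUL4 ubiquitin ligases, rose. CUL4A (0.17) and FZR1 (-0.12) did not pass. With the block in DESeq2 the list had 0 calls, and it also had 0 without replicate 2 or without replicate 3.

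Of 14 transcription factor genes reported at the CCND1 promoter, 1 rose and 1 fell, with a median of -0.06. That is about the 13.5% of all genes called, and the count is no result about these factors. JUN, an AP-1 subunit, fell from 371 to 258 CPM (log2 fold change -0.53 ± 0.06, SE; edgeR blocked adjusted p = 0.0011), and its pairs were alike at -0.56, -0.50 and -0.53. MYC rose from 293 to 379 CPM (0.37 ± 0.07, SE; adjusted p = 0.0091). The AP-1 subunit FOSL1 (0.07) and ETS1 (0.04) did not pass, and without replicate 1 the ETS1 value was -0.03. Of 12 chromatin partners and phosphatases of pocket proteins 2 fell and 0 rose, with a median of -0.08, again near the 13.5% of all genes called in either direction (8.01% fell). RBBP7 (-0.31), a histone-binding protein, and PPP1CB (-0.24), a catalytic subunit of the phosphatase that acts on RB1, fell, and PPP1CC (-0.12) and SMARCA4 (0.05) did not pass. That list had 0 calls without replicate 2, and also when genes under a mean of 5 CPM were left out.

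The protein-coding genes whose levels followed CCND1 most closely over the 6 libraries, after subtraction of each replicate number's mean, were GNAI2, ERO1A and B4GALT1 (Pearson r of 0.9999 or more). For RBL1 they were ASXL2, ATG14 and IFITM3, at the same r. Such values rest on 3 paired differences, and 478 and 307 of 9091 candidate genes had an r over 0.99. They are a description of shape and not of size. B4GALT1, a galactosyltransferase, had a log2 fold change of -1.07 (edgeR blocked adjusted p = 0.0036) and pairs of -1.52, -0.83 and -0.86 beside the -1.35, -0.76 and -0.77 of CCND1. ERO1A (-0.34) also passed and GNAI2 (-0.16) did not. Of the genes most like RBL1, ASXL2 (-0.21), ATG14 (-0.12) and IFITM3 (-0.06) did not pass.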

How the data were processed

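RNA-seq was deposited for 3 control and 3 NELFCD knockdown libraries. Raw counts per gene were used as the authors deposited them, with symbols, coordinates and lengths per the file headers. The submitters' processing notes name hg38. Aligner, counter and strand setting are not given in the sources used here. The deposited FPKM equalled count over length and 1 constant per library. Member coordinates and lengths matched GENCODE release 29. Differential expression across all genes used edgeR 4.0.16 (R 4.3.3) with filterByExpr, TMM and robust quasi-likelihood tests, adjusted by Benjamini-Hochberg over 14844 genes. DESeq2 1.42.0, limma 3.58.1, other scalings and filters, and left-out libraries were alternatives. The code was tested on simulated data. Fits without a replicate term and with replicate number as a block were both planned, the first as the main one. The blocked one has 2 residual degrees of freedom. Same-numbered libraries deviated together (correlations of 0.864, 0.696 and 0.685), a pairing that no label states. Control replicate 2 correlated as well with knockdown replicate 3 (0.693) as with its own number, so the pairing rests on replicate 1. Poisson intervals cover counting error only. The members, lists, contrast of replicate 1 and rule for named genes were chosen with earlier results of these data known. The rule took all members and, per list, up to 4 called genes with the largest change and 2 uncalled genes of the highest level. It also took the 3 genes most like CCND1 and RBL1. Genes whose exons overlap a member were named too. RefSeq promoter windows were searched for motifs.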

Additional observations from a re-analysis of the deposited data

Results flagged for a closer look

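In 5 of 9 tested members the knockdown difference was not the same in pair 1 as in pairs 2 and 3 by the interaction test of edgeR. Of all genes 13% were called in that test. On the log2 scale the difference in pair 1 minus that in the other pairs was -0.586 for CCND1 (adjusted p = 1.2e-13), -0.687 for RBL1 (0.00057), -0.453 for RBL2 (0.0005), -0.259 for CDK6 (0.0049) and -0.255 for RB1 (0.033). The difference was more negative in pair 1 for each of the 5, and RB1 was lower in pair 1 and higher in pairs 2 and 3. The test rests on 2 residual degrees of freedom and on a split of replicate 1 that was known from these data. Groups of 3 libraries were too small for a search for single outlying libraries.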

How the results depend on the processing

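The numbers of replicates pair the samples by the data, and the replicate block decides the calls. Without a replicate term edgeR called 0 members and 0 genes, with the replicate block 3 members and 2002 genes, and with replicate 1 as a term 4 members and 3117 genes. DESeq2 without the block called 161 genes. In the blocked fit, leaving out 1 replicate of both groups gave 2 to 5 members and 932 to 4090 genes. Other scalings, filters and tools with the block gave 3 or 4 members. CCND1 and RBL1 passed in 10 of 11 alternatives to the blocked fit and CDK6 in 9, and CDK4 and CCND3 in 0. Over the same 11 alternatives the calls ran from 0 to 12 in the S phase list (7 with the block), 0 to 7 in the E2F list (5), 0 to 4 in the turnover list (2), 0 to 5 in the CCND1 promoter list (2), 0 to 6 in the chromatin list (2), and 0 to 1 in the inhibitor and cyclin E lists (0). Some log2 values changed sign. With the block, upper-quartile scaling gave 0.001 for CDKN1B, 0.021 for CDKN2C, 0.053 for CDKN1A, 0.026 for CCNA2 and 0.028 for E2F4, as it moved the median of all genes to 0.048. CDKN1A was at 0.258 without the block, 0.018 with replicate 1 as a term and again with genes under 5 CPM left out, and 0.101 in limma-voom. TFDP1 was at -0.009 without the block, -0.001 with size factors and in DESeq2, and -0.006 without a filter. With 1 replicate of both groups left out, the ranges were -0.041 to 0.113 for RB1, -0.144 to 0.038 for CDKN1B, -0.331 to 0.174 for CDKN1A, -0.027 to 0.031 for TFDP1 and -0.03 to 0.067 for ETS1. With 1 library left out and no block they were -0.044 to 0.092 for CCND3, -0.129 to 0.234 for CDK4, -0.07 to 0.225 for RB1, -0.836 to 0.238 for RBL2, -0.177 to 0.151 for CDKN1B and -0.357 to 0.322 for CDKN2C. The cause was not tested. CCND2 is limited by depth.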

Other observations

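Several other inhibitors and regulators of the G1 phase differed between replicates, as 61.8% of all genes did between replicate 1 and the others. They are given as values. CDKN1A was at 110.2, 22.2 and 24.0 CPM in controls and 150.2, 19.6 and 17.1 CPM in knockdowns, so replicate 1 was the highest of both groups, with a log2 difference from replicates 2 and 3 of 2.65 ± 0.16 (SE). CDKN1C was at 4.73, 0.92 and 0.56 CPM in controls and 3.12, 0.55 and 0.41 CPM in knockdowns. CDKN2D, at 28.8, 13.02 and 13.5 CPM in controls and 24.3, 13.6 and 11.5 CPM in knockdowns, was also highest in replicate 1. Cyclin E2 (CCNE2) was lowest there, at 9.73 and 6.98 CPM in the replicate 1 libraries and 27.6 to 29.3 CPM in the others. CCNE1 was between 4.11 and 4.80 CPM in all 6 libraries. CDC25A, a phosphatase that activates CDK2, was at 18.0 and 23.9 CPM in replicate 1 and 53.2 to 61.2 CPM in the other 4 libraries. The kinase CDK7 was the 1 gene of the cyclin E, cyclin A and CDK2 list called higher in replicate 1 by edgeR. It stood at 63.3 and 64.7 CPM there, against 33.4 to 36.3 CPM in the other 4 libraries. Of the 8 genes of that list 5 were called lower, where 30.2% of all genes were lower and 31.6% higher. The contrast of replicate 1 was set with earlier results of these data known.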
